A study of Homo sapiens with 12 samples.

Results

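The 42 genes described here act in mitosis and on the mitotic spindle, and all of them were found in the count table among its 58302 gene identifiers. They are a list of symbols, each matched to a single Ensembl gene, and the list was drawn up with earlier results of these data known. They comprise 11 mitotic kinases, cyclins, phosphatases and partners, 7 genes of the spindle checkpoint and the anaphase-promoting complex, 7 centromere and kinetochore genes, 11 kinesins and spindle assembly factors, 2 cytokinesis genes, 2 transcription factors and 2 genes of chromosome structure or proliferation marking. The study treated OSCC cells with rapamycin, an inhibitor of the kinase mTOR that induces autophagy, and asked how mRNA levels and m6A, a methyl mark on adenosine in RNA, changed. RNA-seq was performed on 2 libraries of cells given 100 nM rapamycin and 2 control libraries, for which a treatment time is not given in the sources used here. MeRIP-seq sequences RNA fragments captured by an anti-m6A antibody, with the input as reference. It was carried out in 2 established human OSCC lines, HSC3 and CAL33, with and without 100 nM rapamycin for 3 days. Each of the 4 combinations had 1 immunoprecipitated library and 1 input.

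Mitotic genes are transcribed mainly in late S phase, G2 and mitosis, so their mRNA is abundant in cycling cells and scarce in resting ones. Cyclin B with CDK1 drives entry into mitosis, the Aurora and Polo-like kinases build and control the spindle, and the spindle checkpoint holds back the anaphase-promoting complex until every kinetochore is attached. Kinesins and anillin then separate the chromosomes and divide the cell. Many of these genes carry a cell cycle genes homology region, abbreviated CHR, or CCAAT boxes in their promoters. The CHR is known to be bound by the DREAM complex in resting cells and by complexes of B-MYB and FOXM1 in proliferating cells. CCAAT boxes are bound by NF-Y.

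Before the results, 1 conflict in the labels has to be stated. The labels of the RNA-seq libraries name HSC3 for both rapamycin libraries and CAL33 for both controls, whereas in the MeRIP-seq libraries number 1 is HSC3 and number 2 is CAL33 in each treatment. If the RNA-seq labels are right, treatment and cell line cannot be told apart. In the counts, same-numbered libraries were the most alike: Pearson's r of log2(CPM + 0.5) across 15826 genes, which are not independent replicates, was 0.970 and 0.957 for them and between 0.810 and 0.856 for the other pairs. Of 357 genes with an m6A peak in both HSC3 lists and in neither CAL33 list, 70.9% had more mRNA in number 1, against 35.4% of 189 genes with the reverse pattern and 51.3% of all genes. By treatment, 47.9% of the 357 genes and 50.8% of the 189 had more mRNA with rapamycin, against 53.0% of all genes. These shares were not tested. The list's own rule pairs the libraries by number, and the number was therefore a block in the fit. The block decides the calls: without it, 0 of 15826 genes passed an adjusted p of 0.05 in edgeR's quasi-likelihood test, although 446 had an unadjusted p under 0.05. None of the 42 genes passed there, and 9 had an unadjusted p under 0.05. The p-values measure the spread between these samples only, since separate cultures are not stated.

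Libraries held 18492273 to 23763098 counts, and mitochondrial genes took 5.71% to 7.94% of them. The squamous epithelial markers were all detected (13 of 13), with a summed level of 7406 and 7761 CPM (TMM-scaled counts relative to library size) in control and 5286 and 5325 CPM with rapamycin, and 3 of them, KRT5, KRT6A and KRT14, were lower with rapamycin. KRT14 was at 0 in both number 1 libraries. Of 6 leukocyte markers none reached the level for testing, and PTPRC was at 0 throughout. The 7 fibroblast markers summed to between 8.83 and 46.7 CPM, with COL1A2, COL3A1 and DCN at 0, and the 4 endothelial markers to between 1.42 and 45.4 CPM, with KDR at 0. The part of the squamous marker shift in the results below was not tested.

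The mitosis and spindle genes were lower with rapamycin as a group. Together they took 8221 and 6278 CPM in control libraries 1 and 2, against 4039 and 4376 CPM in rapamycin libraries 1 and 2, so both rapamycin sums lay below both control sums. All 42 genes passed the filter on low counts. With the number as a block, 18 of 42 (42.9%) were called lower, against 3.50% of all 15826 genes tested and 5.29% of the 9362 genes whose mean level reached that of the lowest member. None was called higher, against 4.65% of all genes, and no member with a positive change had an unadjusted p under 0.05. DESeq2 in the same design called 0 members higher too. The median log2 fold change was −0.82 over the members and 0.05 over all genes tested. Adjusted p lay between 0.05 and 0.1 for 6 more members, all with negative values, and 39 of 42 fitted changes were negative. The calls depended on the settings: DESeq2 did not call CENPE, KIF20A, KIF23 and KIF4A, and with upper-quartile normalization 9 members were called, without ASPM, BUB1B, CCNA2, CENPE, FOXM1, KIF11, KIF20A, KIF23 and KIF4A. Over all genes that normalization called 805 higher and 360 lower, where TMM called 736 higher and 554 lower. In bulk samples, fewer cells in the cycle and less mRNA per cycling cell cannot be told apart.

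**Figure D1:**
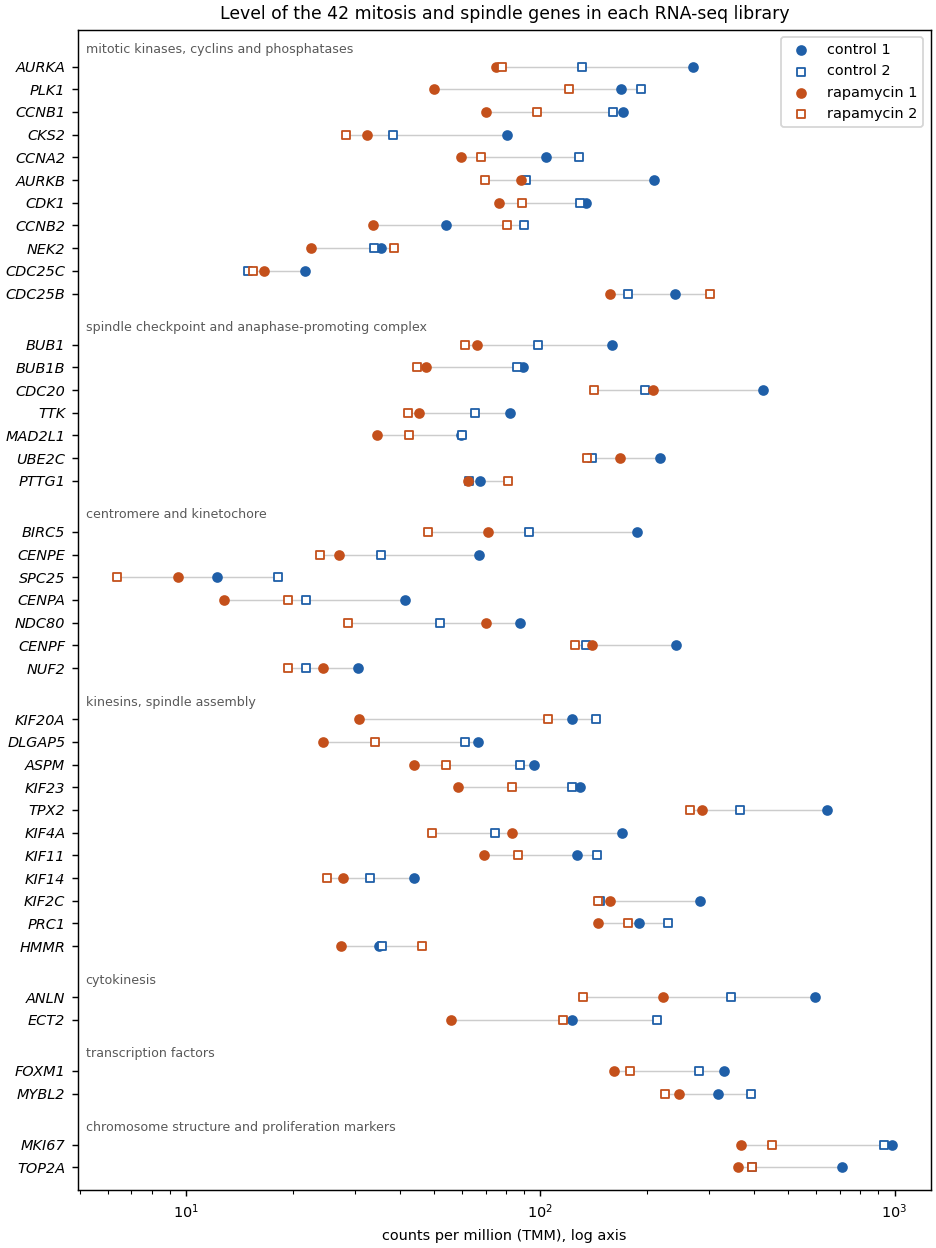
Level of each of the 42 genes in CPM (log axis) in the 2 control (blue) and 2 rapamycin (orange) libraries, with circles for number 1 and open squares for number 2. For 29 of 42 genes both orange symbols lie to the left of both blue ones.

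In 29 of 42 genes (69.0%) both rapamycin libraries lay below both controls, which was so for 16.5% of all genes tested. For 37 of 42 (88.1%) the level was lower with rapamycin in both numbered pairs, against 31.8% of all genes. In pair 1 all 42 genes were lower, with a median log2 difference of −0.94, and in pair 2 37 were lower, with a median of −0.55. The 5 genes that were higher in rapamycin library 2 than in control library 2 were CDC25B, HMMR, PTTG1, NEK2 and CDC25C, with log2 differences of 0.77, 0.37, 0.36, 0.19 and 0.04. The fall was larger in pair 1 for 37 of the 42 genes, and for 50.5% of all genes the pair 1 value was the lower. Whether the pairs differ was not tested, since each combination of number and treatment is 1 library. With a library of pair 1 left out, only pair 2 gives a value. The fitted median was then −0.52 without control library 1 and −0.55 without rapamycin library 1.

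**Figure D2:**
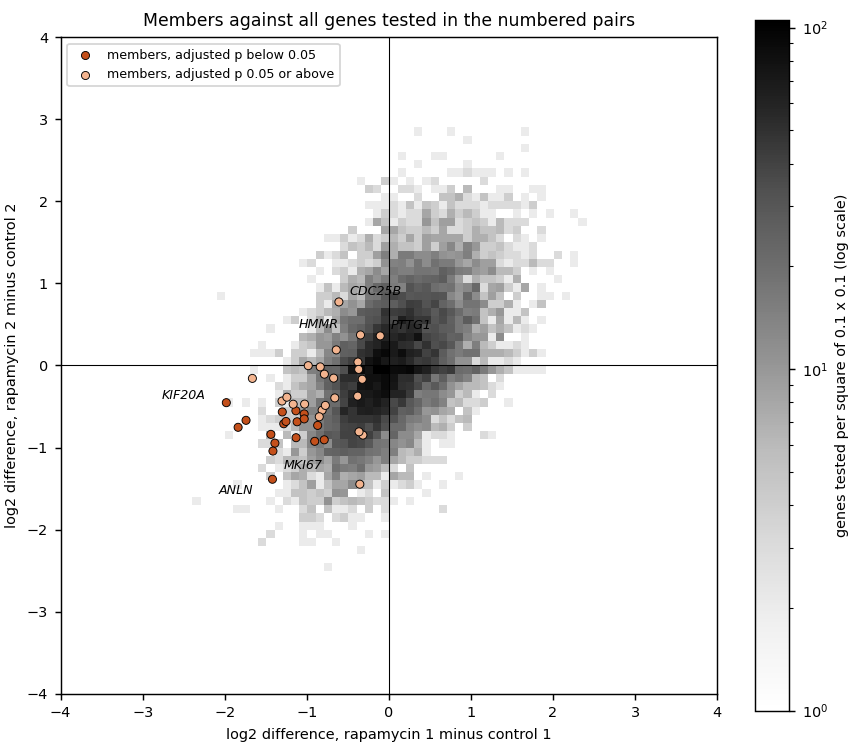
Log2 difference between rapamycin and control in pair 1 (horizontal) and pair 2 (vertical), with all 15826 genes tested in grey (genes per square on a log scale, values beyond the axes drawn at the edge) and the 42 mitosis and spindle genes as points. All points lie left of 0, 37 of them also below 0, and ANLN and MKI67 lie far down in both pairs.

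Promoter sequences from RefSeq (GRCh38.p14, from 250 bases before to 50 after the first listed start) matched 36 of the 42 genes, of which 6 have several starts. FOXM1, BIRC5, TPX2, UBE2C, AURKA and TTK had no entry. The CHR core TTTGAA, searched on both strands, was present in 24 of 36 (66.7%), against 9.73% of 11397 promoters of genes tested and 15.4% of 27305 promoters in all. CCAAT, also searched on both strands, was present in 27 of 36 (75.0%), against 36.5% of genes tested and 35.7% of all. Both were present in 20 of 36 (55.6%), against 4.14% and 6.08%. Members called lower held the CHR core in 10 of 15 promoters and those not called in 14 of 21, the same share of 66.7%. In the 250 bases before the start alone, the CHR core was present in 10 of 15 and 9 of 21. In that window it was present in 8.44% of promoters of genes tested and 13.6% of all promoters. A match describes these letters in this window and is not a binding site.

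The 120 bases before the start are shown for the 6 called genes with an entry that had the largest falls. Most of the stretches hold the letters of both elements, but that of ANLN holds no CCAAT box. Capitals mark the CHR core and the CCAAT box, each as spelled out above or as its reverse complement, and each stretch is written 5′ to 3′ on the strand of its gene. In MKI67 the second CHR core and the CCAAT box after it share 1 base, the only such overlap among the 27 CHR core and 57 CCAAT matches of the members before their starts.
ANLN, plus strand of chr7:36389742-36389861: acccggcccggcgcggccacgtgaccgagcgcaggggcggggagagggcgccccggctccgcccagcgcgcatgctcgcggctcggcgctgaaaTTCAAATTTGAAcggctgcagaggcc
MKI67, minus strand of chr10:128126424-128126543: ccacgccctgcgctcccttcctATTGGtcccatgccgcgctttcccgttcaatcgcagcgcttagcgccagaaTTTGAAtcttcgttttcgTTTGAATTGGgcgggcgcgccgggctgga
KIF20A, plus strand of chr5:138178992-138179111: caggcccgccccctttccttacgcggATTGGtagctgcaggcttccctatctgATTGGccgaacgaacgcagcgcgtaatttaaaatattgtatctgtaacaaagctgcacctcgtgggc
PLK1, plus strand of chr16:23678769-23678888: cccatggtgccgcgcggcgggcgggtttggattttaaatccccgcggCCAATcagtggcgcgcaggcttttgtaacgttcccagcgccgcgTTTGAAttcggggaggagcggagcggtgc
DLGAP5, minus strand of chr14:55191586-55191705: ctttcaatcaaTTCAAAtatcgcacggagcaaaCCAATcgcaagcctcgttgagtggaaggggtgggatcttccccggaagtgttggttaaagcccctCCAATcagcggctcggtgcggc
ECT2, plus strand of chr3:172750606-172750725: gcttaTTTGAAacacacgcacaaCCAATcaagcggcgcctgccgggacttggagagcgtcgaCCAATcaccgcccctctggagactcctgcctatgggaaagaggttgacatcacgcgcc
The CHR cores of ANLN began 26 and 20 bases before the start, those of MKI67 47 and 29 bases before it and that of PLK1 29 bases before it. KIF20A had 2 CCAAT boxes and no CHR core in this stretch.

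Among the mitotic kinases, cyclins and phosphatases, 4 of 11 were called lower and the median log2 fold change was −0.82. AURKA (ENSG00000087586, RefSeq chr20:56369390-56392215) encodes Aurora A, the kinase that matures centrosomes and assembles the spindle poles. Its mRNA was 269 and 131 CPM in control libraries 1 and 2, and 74.9 and 77.7 CPM in rapamycin libraries 1 and 2. Both rapamycin libraries were low and alike, and the groups did not overlap. AURKA fell by 1.30 on the log2 scale (standard error 0.28, adjusted p = 0.00722), which is 2.46-fold, by 1.84 in pair 1 and by 0.75 in pair 2. PLK1 (ENSG00000166851, chr16:23678889-23690367), the Polo-like kinase of mitotic entry and cytokinesis whose promoter is shown above, was 169 and 192 CPM in control and 50.2 and 121 CPM with rapamycin. The first rapamycin library was the lowest of the 4, and the groups did not overlap. PLK1 fell by 1.21 on the log2 scale (standard error 0.28, adjusted p = 0.0108), by 1.74 in pair 1 and by 0.67 in pair 2.

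CCNB1 (ENSG00000134057, chr5:69167150-69178245) encodes cyclin B1, the partner of CDK1 in mitosis. It was 171 and 160.3 CPM in control and 70.0 and 97.8 CPM with rapamycin, and it fell 2.00-fold (standard error 0.26 on the log2 scale, adjusted p = 0.0182). CCNA2 (chr4:121816444-121823883), cyclin A2 of S phase and G2, was 103 and 128 CPM in control and 59.7 and 68.1 CPM with rapamycin. It fell by 0.85 on the log2 scale (standard error 0.26, adjusted p = 0.0383). The groups did not overlap for either cyclin, and CCNA2 was among the few members with the larger fall in pair 2 (0.91, against 0.79 in pair 1).

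The other 7 genes of this role did not pass the test. CDK1, AURKB (the Aurora kinase of the chromosomal passenger complex) and CKS2 (a small CDK-binding subunit) had log2 fold changes of −0.68, −0.82 and −0.88, with adjusted p of 0.0944, 0.0586 and 0.0658. All 3 had both rapamycin libraries below both controls. CCNB2, NEK2 and CDC25C had values of −0.42, −0.23 and −0.17, and their groups overlapped. CDC25B (ENSG00000101224), the phosphatase that activates cyclin-dependent kinases at entry into mitosis, was 240.1 and 176 CPM in control and 157 and 302 CPM with rapamycin. Its lowest and its highest library were both rapamycin libraries, and the fitted change was 0.08 (standard error 0.31, adjusted p = 0.903), with −0.61 in pair 1 and 0.77 in pair 2.

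**Figure D3:**
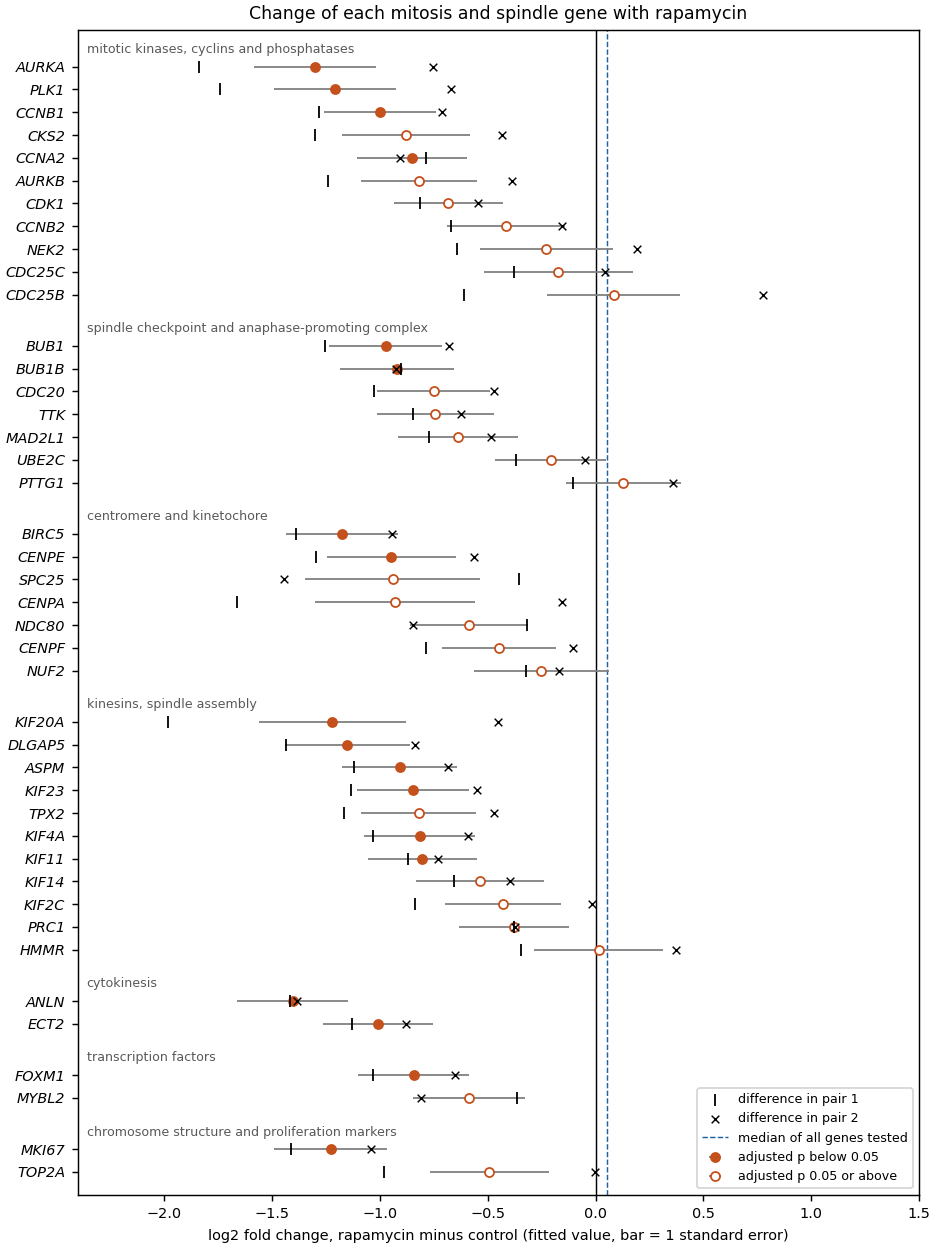
Fitted log2 fold change, rapamycin minus control, of each of the 42 genes by role (circles, with bars of 1 standard error), filled for the 18 genes with an adjusted p below 0.05, with the difference in pair 1 (tick) and pair 2 (cross). The dashed line is the median of all genes tested, 0.05, and for most genes the tick lies to the left of the cross.

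Of the 7 spindle checkpoint and anaphase-promoting complex genes, 2 were called lower and the median was −0.74. BUB1 (ENSG00000169679, chr2:110637528-110678063), a checkpoint kinase at the kinetochore, was 159 and 98.6 CPM in control and 66.4 and 61.3 CPM with rapamycin. It fell by 0.97 on the log2 scale (standard error 0.26, adjusted p = 0.0218). BUB1B (ENSG00000156970, chr15:40161069-40221123), which encodes BUBR1 of the checkpoint complex that inhibits CDC20, was 89.2 and 85.6 CPM in control and 47.4 and 44.9 CPM with rapamycin. The 2 libraries of each group lay close together, and the groups did not overlap. BUB1B fell by 0.92 on the log2 scale (standard error 0.27, adjusted p = 0.0317), by 0.90 and 0.92 in the 2 pairs.

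CDC20, the activator of the anaphase-promoting complex, had the most counts of this role. It was 425 and 197 CPM in control and 208 and 142 CPM with rapamycin, so control library 2 lay below rapamycin library 1 and the groups overlapped. The fitted change was −0.75 (standard error 0.26, adjusted p = 0.0722). The checkpoint kinase TTK and MAD2L1, which encodes MAD2, had values of −0.74 and −0.64 with adjusted p of 0.0872 and 0.159. UBE2C, the ubiquitin-conjugating enzyme of the complex, had −0.21. PTTG1, which encodes securin, the inhibitor of separase, was 67.4 and 62.9 CPM in control and 62.6 and 80.9 CPM with rapamycin. It had the most positive value of the 42 genes, 0.13 (standard error 0.27, adjusted p = 0.816), with overlapping groups. PTTG1 has near-identical copies elsewhere in the genome, and how the counting divided such reads is not stated, so its level is uncertain.

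Of the 7 centromere and kinetochore genes, 2 were called lower, all 7 were lower in both pairs, and the median was −0.93. BIRC5 (ENSG00000089685, chr17:78214253-78225635) encodes survivin, the subunit that brings the chromosomal passenger complex to centromeres. It was 187 and 93.1 CPM in control and 71.2 and 48.1 CPM with rapamycin, with no overlap, and fell by 1.18 on the log2 scale (standard error 0.26, adjusted p = 0.00677). CENPE (ENSG00000138778, chr4:103105811-103198343), a kinetochore kinesin that aligns chromosomes, was 67.1 and 35.5 CPM in control and 27.0 and 23.8 CPM with rapamycin. It fell by 0.95 (standard error 0.30, adjusted p = 0.0491), close to the threshold.

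CENPF, a large kinetochore and matrix protein gene, was 242 and 134 CPM in control and 139.9 and 125 CPM with rapamycin. Control library 1 stood apart from the other 3, the groups overlapped, and the log2 fold change was −0.45 (adjusted p = 0.311). CENPA, the centromeric histone H3 variant, had −0.93 with a standard error of 0.37 (adjusted p = 0.129). The NDC80 complex, which couples kinetochores to microtubules, was represented by NDC80, NUF2 and SPC25, with values of −0.59, −0.25 and −0.94 and adjusted p of 0.193, 0.672 and 0.154. SPC25 had the fewest counts of the members, with 6.36 to 18.2 CPM, and the largest standard error, 0.41.

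The kinesins and spindle assembly factors had 6 of 11 called lower and a median of −0.82, and all 11 had the larger fall in pair 1. KIF20A (ENSG00000112984, chr5:138179112-138187723), a kinesin of the central spindle, was 123 and 144 CPM in control and 30.8 and 105 CPM with rapamycin. Rapamycin library 1 stood far below the others. KIF20A fell by 1.22 on the log2 scale (standard error 0.34, adjusted p = 0.0461), by 1.98 in pair 1, the largest difference of any member in either pair, and by 0.45 in pair 2. DLGAP5 (ENSG00000126787, chr14:55148135-55191585), which stabilises spindle microtubules near chromosomes, was 66.8 and 61.3 CPM in control and 24.3 and 34.1 CPM with rapamycin. It fell by 1.15 (standard error 0.29, adjusted p = 0.0146), with no overlap of the groups.

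ASPM (ENSG00000066279, chr1:197084127-197146669), a spindle pole protein gene, was 96.1 and 87.3 CPM in control and 44.0 and 54.1 CPM with rapamycin, and fell by 0.91 (standard error 0.27, adjusted p = 0.0348). KIF23 (ENSG00000137807, chr15:69414349-69448427), the motor of the centralspindlin complex, was 129 and 122 CPM in control and 58.5 and 83.4 CPM with rapamycin, and fell by 0.85 (standard error 0.26, adjusted p = 0.044). Neither gene's groups overlapped. KIF4A, a chromosome-bound kinesin, fell by 0.82 (adjusted p = 0.0492) although its groups overlapped, and its level differed by −0.97 on the log2 scale between number 2 and number 1. KIF11, the kinesin that pushes the spindle poles apart, fell by 0.80 (adjusted p = 0.0481).

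TPX2, which targets Aurora A to the spindle, had the most counts of this role. It was 644 and 367 CPM in control and 287 and 265 CPM with rapamycin, with no overlap, and its log2 fold change of −0.82 (standard error 0.27) had an adjusted p of 0.0543. KIF14, KIF2C, PRC1 and HMMR had values of −0.54, −0.43, −0.38 and 0.01, with adjusted p between 0.279 and 0.981. The antiparallel microtubule bundler PRC1 was nonetheless lower in both pairs, by 0.38 and 0.37, and its groups did not overlap. HMMR, a spindle and hyaluronan-binding protein gene, was 35.0 and 35.7 CPM in control and 27.4 and 46.4 CPM with rapamycin, on either side of the controls.

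Both cytokinesis genes were called lower. ANLN (ENSG00000011426, chr7:36389862-36453791) encodes anillin, the scaffold of the contractile ring, and had the largest fall of the 42 genes. It was 595 and 345 CPM in control and 222 and 132 CPM with rapamycin, with no overlap. ANLN fell by 1.41 on the log2 scale (standard error 0.26, adjusted p = 0.00179), or 2.65-fold, by 1.42 in pair 1 and 1.39 in pair 2. ECT2 (ENSG00000114346, chr3:172750726-172829265), the exchange factor that activates RhoA at the division plane, was 123 and 213 CPM in control and 56.0 and 116 CPM with rapamycin. It fell by 1.01 (standard error 0.26, adjusted p = 0.0153), and both rapamycin libraries lay below both controls.

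Of the 2 transcription factors, FOXM1 (ENSG00000111206, chr12:2857680-2877174), an activator of G2 and mitotic genes, was 330.4 and 281 CPM in control and 161 and 179 CPM with rapamycin. It fell by 0.84 (standard error 0.26, adjusted p = 0.0417). MYBL2, which encodes B-MYB, was 317 and 393 CPM in control and 246 and 224 CPM with rapamycin. Its groups did not overlap either, but its log2 fold change of −0.59 (standard error 0.26) had an adjusted p of 0.161. MKI67 (ENSG00000148773, chr10:128096659-128126423), which encodes Ki-67, the chromosome surface protein used as a marker of proliferation, was 982 and 931 CPM in control and 369 and 452 CPM with rapamycin. The 2 libraries of each group lay close together and the groups far apart. MKI67 fell by 1.23 (standard error 0.26, adjusted p = 0.00571), by 1.41 in pair 1 and 1.04 in pair 2. TOP2A, the topoisomerase that untangles chromosomes, had −0.49 (adjusted p = 0.287). It was 712 and 397 CPM in control and 360.2 and 396 CPM with rapamycin, so control library 1 alone stood above the rest.

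In the same fit, 10 of 42 genes differed between number 2 and number 1. Of the 9362 genes whose mean level reached that of the lowest member, 15.8% were higher in number 1 and 18.8% in number 2. The members' share higher in number 1 was near the first of these. AURKB, CDC20, NDC80, BIRC5, KIF4A and ANLN (6 of 42 or 14.3%, against 20.2% of all genes) were higher in number 1, with log2 differences of number 2 against number 1 between −0.77 and −1.02. CCNB2, PLK1, KIF20A and ECT2 (4 of 42 or 9.52%, against 17.0% of all genes) were higher in number 2, with differences between 0.72 and 0.99. NDC80 (−1.02, standard error 0.28) and CCNB2 (0.99, standard error 0.27) lay furthest out in the 2 directions. The median number difference of the members was −0.06, close to that of all genes, −0.03.

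Other cell cycle genes, taken from lists of the same kind, gave a context. Over all 15826 genes tested, 3.50% were called lower and 4.65% higher, and 3736 had an unadjusted p under 0.05. Of 73 other mitosis genes 19 were called lower and 0 higher (42 had an unadjusted p under 0.05), with a median of −0.70. The condensin subunit NCAPG fell by 1.48 (adjusted p = 0.00211), the cohesin protector CDCA5 by 1.27 (adjusted p = 0.00408) and the kinesin KIF18B by 1.23 (adjusted p = 0.00525). Of 44 DNA replication and G1/S genes 21 were called lower and 0 higher, with a median of −0.89. Among them the origin recognition subunit ORC1 fell by 1.81 (adjusted p = 0.000781), the flap endonuclease FEN1 by 1.45 (adjusted p = 0.00388) and the phosphatase CDC25A by 1.56 (adjusted p = 0.00523). The pair 1 value was the lower for 37 of the 42 mitosis and spindle genes. For the other mitosis genes this was so in 35 of 73 (47.9%, against 50.5% of all genes). Their medians were −0.56 in pair 1 and −0.62 in pair 2. None of the 44 replication genes had the larger fall in pair 1, and their medians were −0.43 in pair 1 and −1.37 in pair 2. These differences between the lists were not tested.

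A list of 16 genes of the anaphase-promoting complex, made of 14 subunits, the activator FZR1 and the inhibitor FBXO5, had 0 called in either direction by edgeR or DESeq2, with 4 at an unadjusted p under 0.05 (ANAPC1, ANAPC7, CDC27 and FBXO5) and a median of −0.37. Of 9 genes of DREAM and MuvB, TFDP1 fell by 0.99 (adjusted p = 0.0178) and TFDP2, the other E2F partner, rose by 0.97 (adjusted p = 0.0242). Among 18 G1 cyclins, kinases and inhibitors 1 was called lower and 5 higher. The 1 called lower was a CDK inhibitor, CDKN2C, which fell by 1.42 (adjusted p = 0.0372). The CDK inhibitors CDKN1A and CDKN1C rose by 1.54 (adjusted p = 0.0013) and 2.90 (adjusted p = 0.00775), the other 4 inhibitors of the list did not pass the test, and the p130 gene RBL2 rose by 1.16 (adjusted p = 0.0108). CDKN1A was 142 and 14.8 CPM in control and 357 and 49.8 CPM with rapamycin, a rise in each pair although the groups overlapped.

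**Figure D4:**
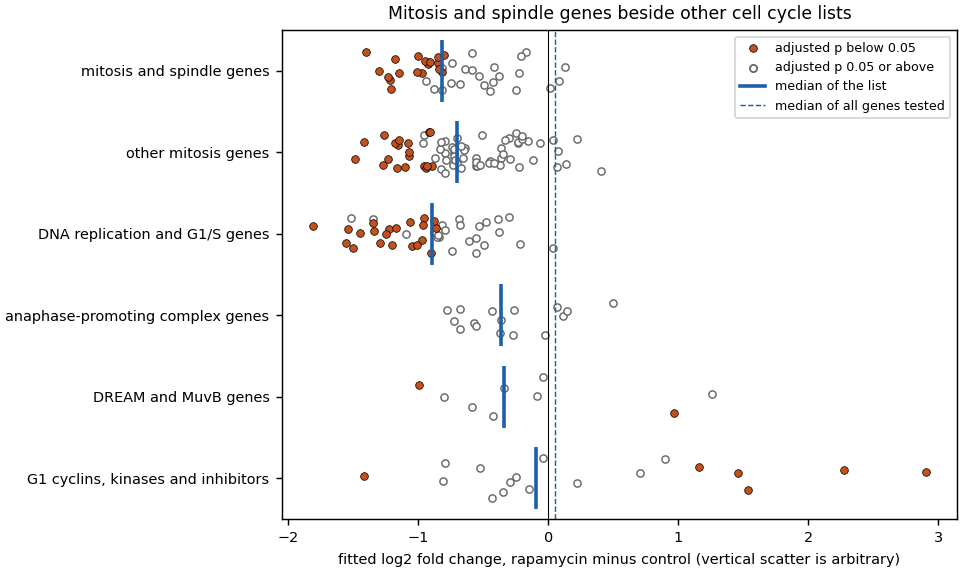
Fitted log2 fold change, rapamycin minus control, of the genes of each list (points, filled for an adjusted p below 0.05) with the list's median (bar) and the median of all genes tested (dashed line). The mitosis and spindle genes have a median of −0.82, the replication genes one of −0.89 and the G1 genes one of −0.09.

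Few of the 42 genes carried an m6A peak, and those that did were mostly MKI67 and FOXM1. The authors called peaks on each pair of immunoprecipitated and input libraries, and with 1 pair per cell line and treatment no test within a cell line was possible. A test of treatment across the lines, with the line as a block, was not run. Over the 4 lists 35 peaks lay on 7 members: ASPM, BIRC5, CENPF, FOXM1, KIF14, MKI67 and PRC1. That is 16.7% of the members with a peak in any list, against 35.4% of the 15826 genes tested for mRNA. In HSC3 control cells 7 members (16.7%, against 17.6% of genes tested) held 15 peaks, and in HSC3 rapamycin cells 2 members (4.76%, against 17.5%) held 4. In CAL33 control cells 3 members (7.14%, against 16.1%) held 7 peaks, and in CAL33 rapamycin cells 4 members (9.52%, against 14.2%) held 9. The share in HSC3 control cells was therefore near that of all genes tested, and the counts moved down in HSC3 and up in CAL33. These shares of all genes include genes with less mRNA than any member. Shares among the 9362 genes that reached the level of the lowest member were not taken for the peaks. Whether the lower mRNA of the members with rapamycin moved their peak counts was not tested, and the depth behind the peaks is unknown.

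Of the 35 peaks, 24 were annotated in coding sequence and 11 in the 3′ UTR. They were 120 to 449 bp long and all lay inside the RefSeq gene. The split between coding sequence and 3′ UTR was not counted over all peaks, so it has no background here. MKI67 held 14 and FOXM1 8, and these were the only members listed in all 4 lists. ASPM and CENPF had peaks in HSC3 control and CAL33 rapamycin cells, KIF14 in HSC3 control and CAL33 control cells, and BIRC5 and PRC1 in HSC3 control cells only. The 2 peaks of KIF14 had a false discovery rate above 0.05. Median fold enrichment of the members' peaks was 4.35 in HSC3 control, 17.8 in HSC3 rapamycin, 8.13 in CAL33 control and 91.1 in CAL33 rapamycin cells, where the medians of all peaks were 33.6, 33.3, 42.6 and 35.9.

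Within HSC3, 3 of the 4 rapamycin peaks on members overlapped a control peak by at least 1 bp, and within CAL33 2 of 9 did. The overlap of all peaks in the lists was not counted, so these counts have no background. FOXM1 had a coding peak at overlapping positions in all 4 lists. It ran over chr12:2859055-2859294 in HSC3 control cells and chr12:2859115-2859324 in HSC3 rapamycin cells, with fold enrichments of 4.35 and 32.8. In CAL33 it ran over chr12:2858846-2859294 without and chr12:2858935-2859383 with rapamycin, with fold enrichments of 385 and 201. Lists are scaled separately, so the peak was also ranked within its own list by fold enrichment, and its percentile went from 6.26 of 3930 peaks to 49.0 of 3952 in HSC3. In CAL33 it was 95.2 of 3625 peaks and 93.2 of 3079. In CAL33 this peak was among the strongest of its list under both treatments.

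MKI67 had peaks in its coding sequence and its 3′ UTR in each list. Both control lists held 3′ UTR peaks at 2 positions, with fold enrichments of 33.6 and 36.3 in HSC3 and of 8.13 and 46.8 in CAL33, whereas with rapamycin HSC3 listed a peak at the first position only and CAL33 at the second only. In HSC3 a 3′ UTR peak at chr10:128098009-128098428 in control overlapped one at chr10:128098278-128098518 with rapamycin, with fold enrichments of 33.6 and 13.7 and percentiles of 49.6 and 25.3. In CAL33 the overlapping 3′ UTR pair lay elsewhere, at chr10:128098938-128099178 and chr10:128098818-128099208, with fold enrichments of 46.8 and 99.1 and percentiles of 51.6 and 79.4. The coding peak of HSC3 at chr10:128108955-128109075 in control overlapped one at chr10:128108985-128109195 with rapamycin, with fold enrichments of 2.01 and 7.10. MKI67 mRNA was lower with rapamycin in both RNA-seq pairs, whereas its overlapping 3′ UTR peak had a lower percentile with rapamycin in HSC3 and a higher one in CAL33.

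**Figure D5:**
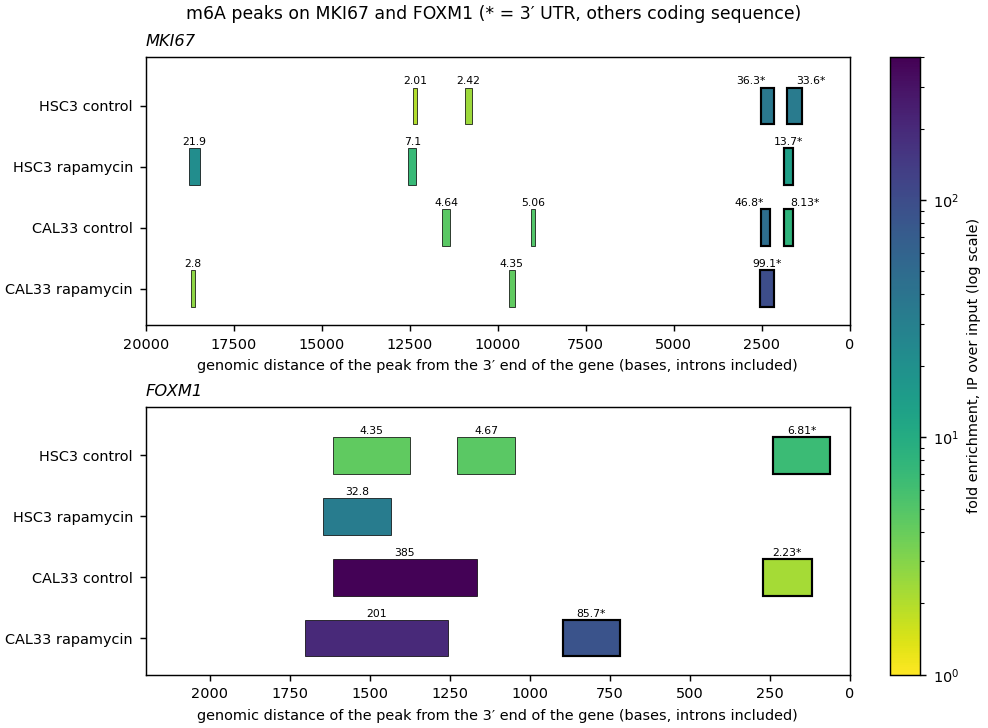
m6A peaks on MKI67 and FOXM1 in the 4 lists, by genomic distance from the 3′ end of the gene in bases, coloured and labelled by fold enrichment over input (log colour scale), with an asterisk for 3′ UTR peaks. The FOXM1 coding peak is present in all 4 lists at fold enrichments of 4.35, 32.8, 385 and 201, and the 3′ UTR peaks of MKI67 fall at 2 positions.

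ASPM had 2 coding peaks in HSC3 control cells (fold enrichments of 50.5 and 16.8) and 2 in CAL33 rapamycin cells (316 and 118), the strongest of the latter at percentile 96.9 of its list. CENPF had 3 weak coding peaks in HSC3 control cells (2.00 to 3.82) and 2 in CAL33 rapamycin cells (91.1 and 5.86). BIRC5 and PRC1 had 1 weak 3′ UTR peak each, with fold enrichments of 1.65 and 1.59. The other 35 members, among them AURKA, PLK1, CCNB1, ANLN and KIF20A, had no listed peak. Of the 18 members called lower in mRNA, ASPM, BIRC5, FOXM1 and MKI67 had a peak in at least 1 list, where 35.4% of all genes tested had one. A link between peaks and the lower mRNA was not tested.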

How the data were processed

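RNA-seq comprised 4 libraries and MeRIP-seq 8 libraries. Per the submitters' processing notes, cutadapt 2.5, HISAT2 2.1.0, featureCounts 1.6.3, HOMER 4.10.4 and hg38 were used, and the deposited table itself is named for HTSeq. The authors deposited raw counts per gene, not normalized, and whether counting used the strand is not stated, so reads of overlapping antisense genes may be shared. For each pair of MeRIP-seq libraries the authors deposited a list of peaks giving for each peak the ratio of immunoprecipitated over input signal (fold enrichment), its p-value on a log10 scale and as a score, and its false discovery rate on a log10 scale. The peak caller is not given in the sources used here, and the depth of these libraries is unknown. Positions are counted from 1.

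The counts were fitted with edgeR 4.0.16 under R 4.3.3: filterByExpr by treatment (15826 genes), TMM, and the robust quasi-likelihood test of rapamycin against control with the number in the title as a block, with Benjamini-Hochberg adjustment over all genes at 0.05. This design leaves 1 residual degree of freedom per gene, and the spread is shared across genes. The block follows the list's rule, which pairs libraries by number. The number difference of the rapamycin libraries correlated with that of the controls (r = 0.885 across 15826 genes), but the RNA-seq cell line labels go against the pairing. CPM are TMM-scaled, and log2 differences within a pair used CPM + 0.5. Fold changes are fitted values. Standard errors were derived from the test, as the absolute log2 fold change over the square root of its F statistic. Alternatives were no block, DESeq2 1.42.0, upper-quartile factors, other filters on low counts, each library left out, stricter peak thresholds and other overlap and promoter windows. The test was first checked on simulated counts.

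The members and all gene lists were chosen with earlier results of these data known. The values in each library are printed for the 15 called members with the largest changes, the member with most counts in each role and the largest rise and fall; up to 3 genes are named per other list. FOXM1, HMMR and TOP2A, with values in each library, and CDKN2C and the 4 genes named of the anaphase-promoting complex list were added after their values were seen. Promoters and gene positions are from RefSeq (GRCh38.p14). No genome was used, so the peaks' own sequences were not analysed here.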

Additional observations from a re-analysis of the deposited data

Results flagged for a closer look

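Several differences in the m6A peak lists of the members had opposite signs in HSC3 and CAL33. Rapamycin minus control, the 42 genes had −11 peaks in HSC3 and 2 in CAL33, and the number of members with a peak differed by −5 in HSC3 and 1 in CAL33. The percentile of the FOXM1 coding peak in its list differed by 42.7 in HSC3 and by −1.99 in CAL33 (95.2 in control cells and 93.2 with rapamycin), a small difference with no replicate error to set it against. That of the MKI67 3′ UTR peak differed by −24.3 in HSC3 and 27.8 in CAL33, at different positions in the 2 lines. The lists differ in length (3930 and 3952 peaks in HSC3 control and rapamycin cells, 3625 and 3079 in CAL33), and whether this moved the percentiles was not tested. Each value comes from 1 pair of libraries per treatment, and the difference between the cell lines was not tested.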

How the results depend on the processing

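The block decided the calls of the RNA-seq comparison. Without it, genes called went from 1290 to 0, members called lower from 18 to 0 (adjusted p of 0.9997 for each member), and calls in the other lists to 0 for other mitosis genes, replication genes, DREAM and MuvB subunits in either direction, and G1 genes in either direction. The median log2 fold change of the members without the block was −0.84. With DESeq2, 818 genes were called, with 12 replication genes lower, 0 G1 genes lower and 2 G1 genes higher, and 14 members remained called. With upper-quartile normalization 9 members were called lower, with no filter on low counts 22, the added ones being AURKB, CDC20, CKS2 and TPX2, and with at least 10 counts in every library 15. With no filter, HMMR turned from 0.01 to −0.023 (adjusted p = 0.986). The members' median stayed between −0.86 and −0.74 under these alternatives and between −0.95 and −0.52 with 1 library left out, where only the other numbered pair gives a value and no test was possible. Among the peaks, a fold enrichment of at least 4 left 4 members with a peak in HSC3 control cells, and counting any peak of the same gene as shared gave 5 CAL33 rapamycin peaks. The 2 numbered pairs, the unresolved cell line labels and the unknown depth of the MeRIP-seq libraries limit these results.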
